A study of Mus musculus with 10 samples.

Results

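Endothelial cells line the blood vessels that feed a tumor. The genes described here are 10 endothelial and vessel genes, taken by symbol from the gene count files of 10 mouse melanomas: *Cdh5*, *Pecam1*, *Esam*, *Cldn5*, *Emcn*, *Kdr*, *Flt1*, *Tek*, *Angpt2* and *Vwf*. All 10 symbols were found among the 55401 gene rows, and all 10 passed the filter on low counts. Each was compared between *Mir25* KO and NTC tumors and followed from tumor to tumor.

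The tumors grew from B16F10 cells, a melanoma line of the C57BL/6 mouse, edited by CRISPR with guides against *Mir25* (KO, 5 tumors) or with non-targeting guides (NTC, 5 tumors). The cells were selected with antibiotic after transduction, and whether the injected cells came from 1 clone was not given in the sources used here. They were placed under the skin of female C57BL/6J mice aged 9 to 12 weeks. Every mouse, KO and NTC alike, received Comb, which joins GVAX (irradiated B16 cells that secrete GM-CSF, on days 1 and 4) with αPD-1 (10 mg/kg on days 6, 9 and 12), and the tumors were taken on day 15. There was no untreated group. The edit was in the melanoma cells, so the vessels were built by the unedited cells of the host mouse.

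miR-25 is a microRNA, a short RNA that pairs with messenger RNAs and lowers their output. The mature RNA that the edit was directed at is shown because it names the only designed difference between the groups. Its sequence is from RefSeq (GRCm38.p6, chr5:138165332-138165353, minus strand), with the seed, bases 2 to 8, in capitals.
mmu-miR-25-3p: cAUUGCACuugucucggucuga
The *Mir25* row held 0 counts in all 10 libraries, so these libraries do not check the edit.

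Endothelial cells hold to one another through VE-cadherin (*Cdh5*), PECAM-1 (*Pecam1*), ESAM (*Esam*) and, at tight junctions, claudin-5 (*Cldn5*), and carry the sialomucin endomucin (*Emcn*) on their surface. They sense VEGF through VEGFR2 (*Kdr*), the main signaling receptor of vessel growth, and VEGFR1 (*Flt1*), which also acts as a trap for VEGF. TIE2 (*Tek*) is the receptor of the angiopoietins, and ANGPT2 (*Angpt2*) is the ligand that opposes ANGPT1 in most settings and is made by activated endothelium. Von Willebrand factor (*Vwf*), which tethers platelets to a damaged vessel wall, is stored in endothelial cells and is also made by megakaryocytes.

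ETS-family factors such as ERG act on many endothelial promoters, and the letters AGGAAG or CGGAAG hold their core. RefSeq promoter windows (GRCm38.p6, 250 bases before to 50 after the gene start) were found for 5 of the 10 genes: *Kdr*, *Flt1*, *Tek*, *Cldn5* and *Emcn*. Searching both strands found 2 matches in *Flt1* and 2 in *Emcn*, and none in the windows of the other 3 genes. Of 32851 promoter windows, 46.5% held at least 1 match and 15.9% held at least 2. The 4 matches are shown in capitals with 11 bases on each side. All 5 genes, with or without a match, varied with *Cdh5* between tumors, as described further on. A match describes the letters and not a bound site.
Flt1 (chr5:147726124-147726151, minus strand): gcccctccgggAGGAAGaagagggtagg
Flt1 (chr5:147726048-147726075, minus strand): ggtgccggggtAGGAAGtgggctgggga
Emcn (chr3:137340893-137340920, plus strand): aagaagggtctCTTCCTgttcaaatccc
Emcn (chr3:137340974-137341001, plus strand): gtggctgccaaAGGAAGagagaggaaaa
The first *Emcn* match is on the minus strand and therefore reads CTTCCT on the strand printed.

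NTC replicate 1 stood apart from the other libraries. It had 11896643 reads on genes, against 23243707 to 28682130 in the other 9. Its share of reads on no gene was 42.9% (17.5% to 28.2% in the other 9), and its TMM normalization factor was 0.628 (0.968 to 1.11 in the other 9). The fold changes, correlations and ratios of the 10 genes are therefore given over all 10 tumors and over the 9 tumors without it. From the 16201 autosomal genes silent in the other 9 libraries, the stray signal in NTC replicate 1 was 0.957 counts per kilobase, which would make up 0.767% to 5.73% of the counts of these 10 genes there. The labels give no batch or date. Replicates are separate tumors by their labels, and the labels do not say whether each came from its own mouse, so p-values measure the spread between these tumors.

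Levels are CPM, counts scaled to a fixed total of reads on genes and normalized with TMM factors, and are listed for replicates 1 to 5 of each group in order. Gene positions are from GENCODE M21 on GRCm38, and none of the 10 genes shares exon bases with another gene.

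Among the junction genes, *Cdh5* (chr8:104101625-104144511) stood at 24.6, 23.3, 24.8, 17.4 and 27.3 CPM in KO tumors and at 46.2, 9.41, 21.6, 11.7 and 16.1 CPM in NTC tumors. NTC replicate 1 was the highest and NTC replicates 2 and 4 were the lowest, so the NTC tumors spanned the KO tumors on both sides. The mean was 23.5 ± 3.69 CPM in KO and 21.0 ± 14.8 CPM in NTC (SD, n = 5 each), and 14.7 ± 5.39 CPM in NTC without replicate 1 (n = 4). In bulk tumor RNA, fewer endothelial cells and less of a transcript per endothelial cell cannot be told apart.

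*Pecam1* (chr11:106654217-106750628) also marks platelets and some leukocytes. It stood at 43.6, 68.2, 36.3, 27.6 and 77.6 CPM in KO and at 90.1, 16.8, 47.4, 20.7 and 36.0 CPM in NTC. NTC replicate 1 was again highest and NTC replicates 2 and 4 lowest, and the groups overlapped. *Esam* (chr9:37528078-37538319), an immunoglobulin-family adhesion protein that platelets share, stood at 5.28, 7.36, 7.10, 4.39 and 7.37 CPM in KO and at 8.17, 2.89, 7.75, 2.93 and 4.37 CPM in NTC. NTC replicate 1 was the highest, and NTC replicates 2, 4 and 5 lay below every KO tumor.

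*Cldn5* (chr16:18776847-18778262) was the shortest and among the scarcest of the 10, at 2.70, 2.69, 6.06, 1.15 and 5.95 CPM in KO and 3.61, 1.12, 5.70, 0.325 and 2.08 CPM in NTC. It differed from the other junction genes in that NTC replicate 1 was not the highest. *Emcn* (chr3:137341067-137432185), which is most abundant on capillary and venous endothelium, stood at 6.06, 11.6, 7.03, 4.64 and 10.6 CPM in KO and at 15.8, 3.21, 9.80, 4.88 and 7.45 CPM in NTC. Both groups spanned a wide overlapping range.

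Of the VEGF receptors, *Kdr* (chr5:75932827-75978458) stood at 12.3, 22.1, 17.7, 14.4 and 17.9 CPM in KO and at 26.9, 7.81, 15.9, 7.39 and 15.3 CPM in NTC. NTC replicates 2 and 4 were again the lowest of the 10 tumors. *Flt1* (chr5:147561604-147726011) stood at 40.9, 47.1, 25.9, 21.7 and 61.9 CPM in KO and at 46.5, 12.7, 26.8, 23.9 and 28.5 CPM in NTC. Its highest value was in KO replicate 5 and not in NTC replicate 1, and 3 KO tumors lay above every NTC tumor but NTC replicate 1.

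*Tek* (chr4:94739289-94874976), the angiopoietin receptor, varied most: 3.60, 5.61, 2.19, 1.22 and 7.02 CPM in KO, and 13.9, 0.0656, 3.18, 0.325 and 3.36 CPM in NTC. NTC replicate 2 held 2 reads and NTC replicate 4 held 8, against 104 reads in NTC replicate 1. The 2 reads lie under the 3 counts that a count of 0 allows, so the level in NTC replicate 2 was at the limit of detection. The coefficient of variation over the 10 tumors was 101% for *Tek*, 67.7% for *Cldn5*, 53.1% for *Pecam1* and 35.2% to 47.4% for the other genes except *Angpt2*.

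*Angpt2* (chr8:18690263-18741562), the TIE2 ligand, was nearly level, with a coefficient of variation of 11.1%. It stood at 49.2, 57.1, 58.4, 46.5 and 53.5 CPM in KO and at 61.6, 61.4, 68.6, 58.6 and 57.8 CPM in NTC. Of the KO tumors only replicate 3 exceeded the lowest NTC tumor, so the groups overlapped at their edges. The gene lies inside *Mcph1* on the opposite strand, and the strand setting of the counting was not given in the sources used here, so unspliced *Mcph1* reads within its exons cannot be told apart from its own.

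*Vwf* (chr6:125546774-125686679) stood at 44.0, 52.1, 45.3, 64.5 and 28.7 CPM in KO and at 35.9, 66.2, 47.4, 112.5 and 54.7 CPM in NTC. Its order of tumors was the opposite of that of the junction genes: NTC replicate 4 was the highest, NTC replicate 2 the next, and NTC replicate 1 and KO replicate 5 were the lowest.

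**Figure D1:**
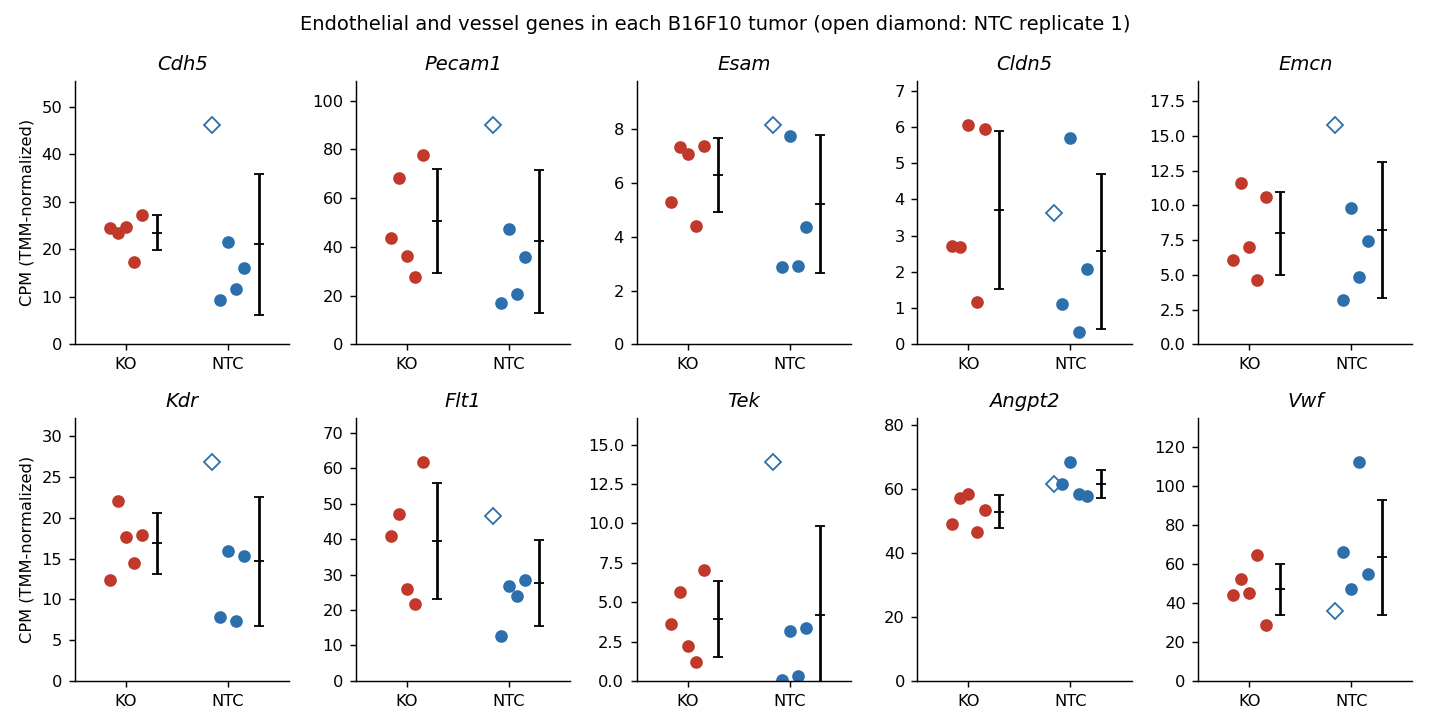
CPM (TMM-normalized) of each of the 10 genes in the 5 KO and 5 NTC tumors, 1 point per tumor, with the group mean and SD as a bar (the lower bar of NTC *Tek* is cut at 0). NTC replicate 1, the open diamond, is the highest tumor for 6 genes, and the KO and NTC points overlap for all 10.

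Per kilobase of exon, the 10 genes could be set in order of level. The median over the 10 tumors was 15.7 CPM per kilobase for *Angpt2*, 6.42 for *Pecam1*, 5.35 for *Cdh5*, 3.10 for *Vwf*, 2.16 for *Esam*, 2.05 for *Flt1*, 1.91 for *Cldn5*, 1.73 for *Kdr*, 1.34 for *Emcn* and 0.694 for *Tek*. *Angpt2* was above *Pecam1* in 10 of 10 tumors, and *Pecam1* above *Cdh5* in 9. *Esam* exceeded *Flt1* in 3 of 10 tumors and *Cldn5* exceeded *Kdr* in 4, so these neighbors could not be ordered beyond the spread between tumors.

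KO and NTC tumors were compared to ask whether loss of *Mir25* in the melanoma cells went with a different vessel content under Comb. None of the 10 genes was called higher or lower over the 10 tumors, where a call needs a log2 fold change past 1 in either direction with an adjusted p (Benjamini-Hochberg) under 0.05 by the quasi-likelihood test of edgeR. The share of all 15821 tested genes called was 0.019% (1 higher, 2 lower), so 0 of 10 could hardly have differed from the background. At an unadjusted p under 0.05, 1 of the 10 genes passed (*Angpt2*, lower in KO), against 8.85% of all tested genes. DESeq2 called none of the 10 either.

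The log2 fold change (KO minus NTC) was positive for 6 of 10 genes, and its median over the 10 was 0.19, against 0.0076 over all tested genes. *Flt1* (0.52, SE 0.36, adjusted p = 0.71 in edgeR) and *Cldn5* (0.54, SE 0.68, adjusted p = 0.842 in edgeR) had the most positive values. *Cdh5* had 0.17 (SE 0.38, adjusted p = 0.916 in edgeR), and *Tek* had -0.03 with a standard error of 1.02. *Vwf* had -0.44 (SE 0.30, adjusted p = 0.712 in edgeR), and -0.13 without NTC replicate 4, its highest tumor. *Esam* had 0.28 (SE 0.33), *Pecam1* 0.27 (SE 0.46), *Kdr* 0.21 (SE 0.34) and *Emcn* -0.03 (SE 0.42). *Angpt2* had -0.22 (SE 0.087), with an unadjusted p of 0.0297 and an adjusted p of 0.503 in edgeR. With only library totals for scaling, the *Angpt2* value was -0.14 (SE 0.18, unadjusted p = 0.466 in edgeR).

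Without NTC replicate 1, 8 of 10 values were positive and the median was 0.58, against -0.015 over all 16078 tested genes. None of the 10 was called, against 0.106% of all genes (2 higher, 15 lower). At an unadjusted p under 0.05, 3 of 10 passed, against 20.1% of all genes: *Cdh5* at 0.64 (SE 0.23, adjusted p = 0.193 in edgeR), *Flt1* at 0.74 (SE 0.32, adjusted p = 0.234 in edgeR) and *Angpt2* at -0.25 (SE 0.095, adjusted p = 0.205 in edgeR). *Pecam1* moved from 0.27 to 0.71 (SE 0.36) and *Tek* from -0.03 to 1.14 (SE 0.88), both short of the threshold. *Vwf* had -0.61 (SE 0.28, adjusted p = 0.261 in edgeR), *Cldn5* 0.65 (SE 0.72), *Kdr* 0.51 (SE 0.27), *Esam* 0.46 (SE 0.32) and *Emcn* 0.30 (SE 0.36). The positive values depended on the lowest NTC tumors as well. Leaving out NTC replicate 2 in place of replicate 1 gave -0.01 for *Cdh5*, 0.05 for *Kdr* and 0.07 for *Pecam1*, and leaving out NTC replicate 4 gave 0.02, 0.05 and 0.10. In DESeq2 over the same 9 tumors the lowest adjusted p among the 10 was 0.0809, for *Cdh5*.

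The ranges of KO and NTC overlapped for all 10 genes with and without NTC replicate 1, whereas they did not overlap for 2.32% of genes over 10 tumors and 6.29% over 9.

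**Figure D2:**
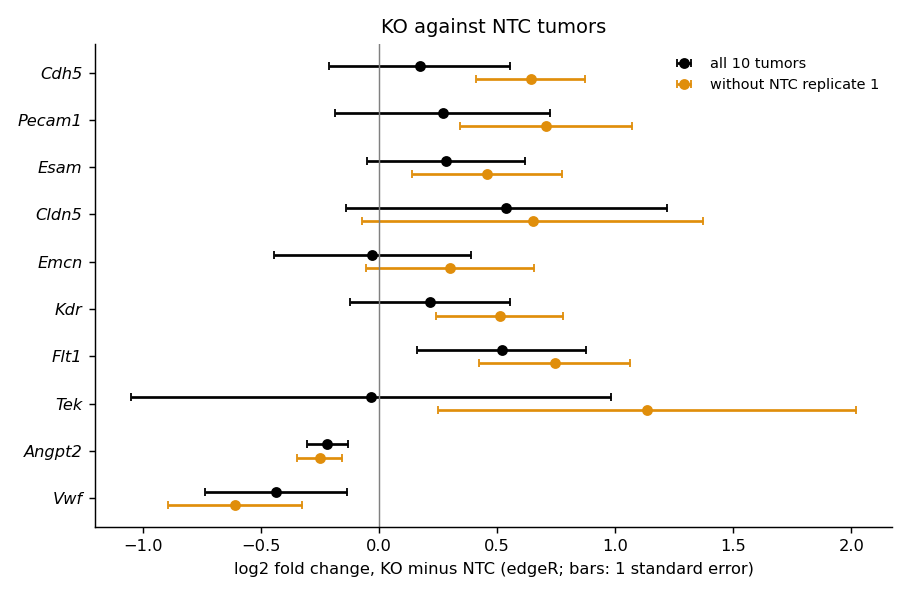
Log2 fold change (KO minus NTC, edgeR) of each gene with 1 standard error, over all 10 tumors (black) and without NTC replicate 1 (orange). Leaving out NTC replicate 1 moves *Cdh5* from 0.17 to 0.64 and *Tek* from -0.03 to 1.14, whereas *Angpt2* stays near -0.2.

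The larger pattern was between tumors and not between groups. Taken over the 10 tumors, 7 genes (*Tek*, *Pecam1*, *Esam*, *Kdr*, *Emcn*, *Flt1* and *Cldn5*) had a Pearson r with *Cdh5* above 0.7 on log2 CPM. An r at least as high as that of *Cldn5*, the lowest of the 7, was reached by 15.9% of 15787 genes. The tumors of these correlations share their TMM factors, and the genes share libraries and depth. In all, 27 relations were computed, each with a two-sided permutation test of 100000 resamples, and adjusted over the 27.

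*Tek* had the highest r with *Cdh5* of the 7 genes (r = 0.92, permutation p = 0.0002, adjusted p = 0.0009). Its rho, 0.82, was below those of *Pecam1*, *Esam* and *Cldn5*. Without the 2 tumors farthest from the median of *Cdh5*, NTC replicates 1 and 2, r was 0.84. *Pecam1* (r = 0.91, rho = 0.88, 0.83 without those 2 tumors), *Esam* (r = 0.90, rho = 0.84, 0.90 without them) and *Kdr* (r = 0.89, rho = 0.79, 0.76 without them) were close behind. The values for *Emcn* were r = 0.86 and rho = 0.72, for *Flt1* 0.80 and 0.73, and for *Cldn5* 0.72 and 0.83. Without the 2 tumors they became 0.63, 0.66 and 0.90. Without NTC replicate 1 alone, r was 0.92 for *Tek*, 0.89 for *Pecam1*, 0.92 for *Esam*, 0.85 for *Kdr*, 0.80 for *Emcn*, 0.82 for *Flt1* and 0.82 for *Cldn5*. The permutation p of r ran from 0.00014 to 0.018 over the 7 genes, and each adjusted p was at most 0.0231. Within the KO tumors alone, r ran from 0.27 (*Kdr*) to 0.90 (*Cldn5*). Within the NTC tumors it ran from 0.69 (*Cldn5*) to 0.99 (*Pecam1*). *Cdh5* itself spread less among KO tumors (SD 3.69 CPM) than among NTC tumors (SD 14.8 CPM).

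*Vwf* ran the other way, with r = -0.79 and rho = -0.94 (permutation p = 0.00811 for r, adjusted p = 0.0129). Without NTC replicates 1 and 2, r was -0.92, without NTC replicate 1 alone it was -0.80, and on library totals only it was -0.78, so the relation did not rest on those libraries or on the normalization factor. *Angpt2* had no such relation (r = -0.02, rho = -0.10, permutation p = 0.949). Its r was -0.24 without NTC replicate 1 and -0.38 on library totals only. Within the groups its r was positive, 0.63 in KO and 0.30 in NTC. Among 15787 genes ranked by r with *Cdh5*, *Tek* stood at 233, *Pecam1* at 303, *Esam* at 456, *Kdr* at 514, *Emcn* at 720, *Flt1* at 1572, *Cldn5* at 2517, *Angpt2* at 7913 and *Vwf* at 15075.

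**Figure D3:**
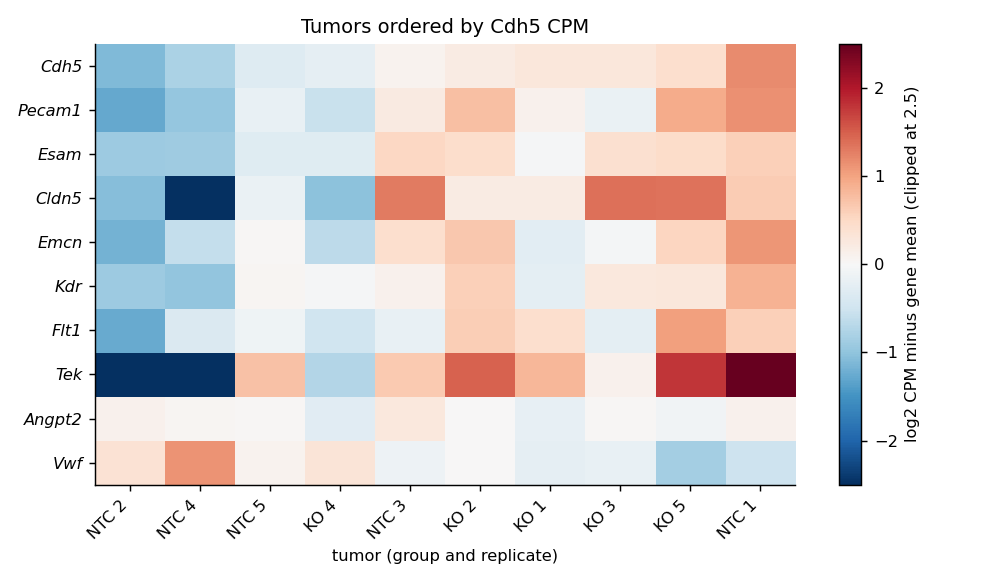
Log2 CPM of each gene minus its mean over the 10 tumors, with tumors ordered from left to right by *Cdh5* CPM. The 8 upper rows go from low (blue) in NTC replicates 2 and 4 to high (red) in KO replicate 5 and NTC replicate 1, the *Angpt2* row is nearly white, and the *Vwf* row runs from red to blue.

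**Figure D4:**
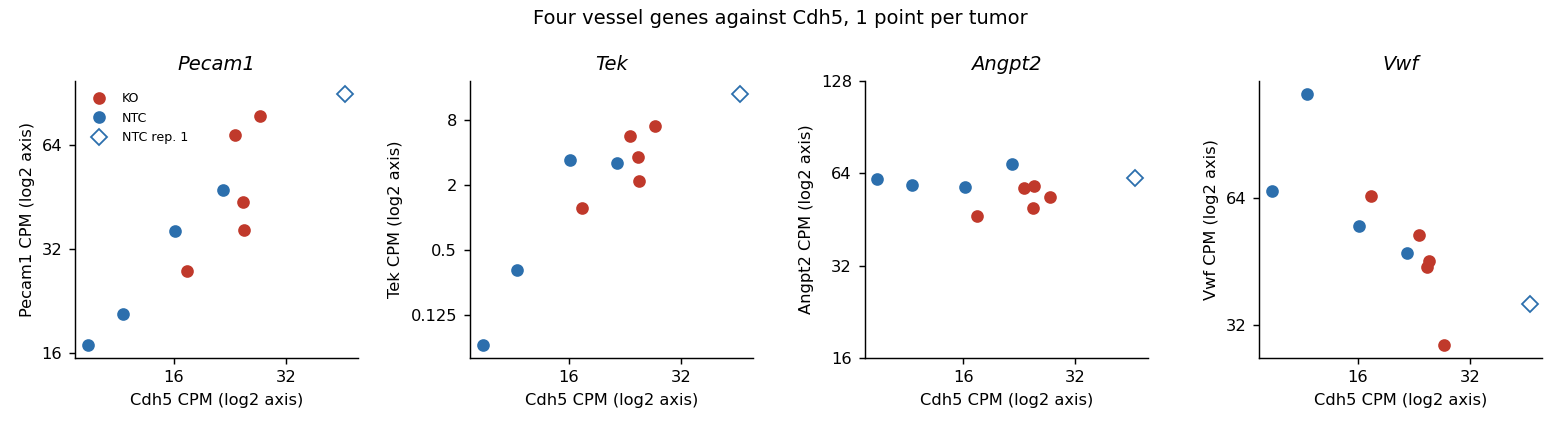
*Pecam1*, *Tek*, *Angpt2* and *Vwf* CPM against *Cdh5* CPM, both axes on a log2 scale, 1 point per tumor. *Pecam1* (r = 0.91) and *Tek* (r = 0.92) climb with *Cdh5*, *Angpt2* stays flat (r = -0.02) and *Vwf* descends (r = -0.79).

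The 10 genes with the highest r with *Cdh5* over the 10 tumors were *Prrg3* (r = 0.991), *Slc39a8*, *Dmd*, *Fam13c*, *Hpgd*, *Peg3*, *Vegfd*, *Shc2*, *Reps2* and *Pi15* (r = 0.972). None of the 10 endothelial and vessel genes was among them, and over the 9 tumors without NTC replicate 1 the top 10 shared 2 names with this one, *Prrg3* and *Slc39a8*. Of these only *Vegfd*, a growth factor of lymphatic vessels, was in a list of vessel genes.

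Markers of several other cell types moved with *Cdh5* too. The mean log2 level of the pericyte and mural genes, which mark the cells wrapped around capillaries, had r = 0.94 and rho = 0.92 with it (permutation p = 2e-05, adjusted p = 0.000405). The fibroblast markers had r = 0.94 (rho = 0.92) and the pan-leukocyte markers r = 0.82 (rho = 0.75). The platelet markers, of which 2 of 6 passed the filter on low counts, had r = 0.82 (rho = 0.83). For the melanoma cell markers r was -0.75 (permutation p = 0.0111) and rho was -0.60 (permutation p = 0.0731). Without NTC replicates 1 and 2 the r values became 0.91 for pericytes, 0.92 for fibroblasts, 0.77 for leukocytes, 0.74 for platelets and -0.52 for melanoma cells. Without NTC replicate 1 alone, r was 0.72 for platelets and -0.56 for melanoma cells, and on library totals only it was 0.63 and -0.49. The adipocyte markers had r = 0.77 (rho = 0.64, 0.59 without the 2 tumors) and the erythrocyte markers r = 0.65 (rho = 0.82, 0.69 without them). These 2 lists had r of 0.06 and 0.18 within KO tumors, and 0.89 and 0.86 within NTC tumors. Over the 10 tumors, the skeletal muscle markers (r = 0.20, rho = 0.58, permutation p = 0.554) and the keratinocyte markers (r = 0.34, rho = 0.56, permutation p = 0.334) showed no such relation past the test. Only 2 of 8 muscle and 0 of 6 keratinocyte markers passed the filter, so their means rest largely on low counts. Within KO their r was -0.86 and -0.48, and within NTC 0.96 and 0.94.

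Summed over the 6 fibroblast markers, the level ran from 913 to 5323 CPM in KO tumors and from 52.8 to 5983 CPM in NTC tumors, with NTC replicate 2 lowest and NTC replicate 1 highest. All 10 pan-leukocyte markers were tested, and their sum ran from 700.1 to 3509 CPM in KO and from 348 to 2744 CPM in NTC. With the leukocyte level as a covariate, the log2 fold change of *Tek* was -0.57 (unadjusted p = 0.254 in edgeR), of *Emcn* -0.48 (unadjusted p = 0.0600 in edgeR), of *Pecam1* -0.26, of *Cdh5* -0.07 and of *Kdr* -0.04. That of *Cldn5* was 0.21, of *Esam* 0.012, of *Flt1* 0.0089 and of *Vwf* -0.0063, while that of *Angpt2* stayed at -0.24. How far these other cells had a part in the levels of the 10 genes was not tested beyond these values.

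The 6 platelet and megakaryocyte markers bear on *Vwf*, *Pecam1* and *Esam*. Their sum ran from 10.4 to 66.8 CPM in KO and from 4.53 to 115 CPM in NTC, mostly *Pf4*, and it was low in NTC replicates 2 and 4 (4.53 and 5.04 CPM), where *Vwf* was highest. *Gp9*, which platelets carry in the von Willebrand factor receptor, reached at most 0.144 CPM in any tumor. The highest values of the others were 4.15 CPM for *Ppbp*, 2.28 for *Itga2b*, 1.34 for *Gp6* and 0.268 for *Gp1ba*. Of the 6 markers, 2 passed the filter on low counts. *Vwf* had r = 0.65 (permutation p = 0.0403, adjusted p = 0.0481) and rho = 0.56 (permutation p = 0.0940) with the mean of the melanoma cell markers. This relation was looked at after its values were seen. For *Angpt2* that r was 0.14 (rho = 0.28, permutation p = 0.705) with TMM factors and 0.86 on library totals only, so it turned on the scaling.

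Ratios to *Cdh5* set each gene against *Cdh5* in the same library, and 9 ratios were compared with exact two-sided permutation tests, with no adjustment. *Angpt2* and *Vwf* did not rise with *Cdh5* over the 10 tumors, so their ratios do not give a level per endothelial transcript. Over 10 tumors no ratio differed between KO and NTC at p under 0.05, and the smallest p that 5 against 5 allows is 0.00794. The largest difference was that of *Tek*, 0.92 on the log2 scale (exact permutation p = 0.437), which was 1.42 without NTC replicate 1 and 0.14 without NTC replicate 2, where *Tek* held 2 reads. *Cldn5* had 0.45 (exact permutation p = 0.548, 0.01 without NTC replicate 4 and 0.37 without replicate 1), *Emcn* -0.30 (exact permutation p = 0.190, -0.36 without NTC replicate 1) and *Flt1* 0.14 (0.013 without it). The differences of *Pecam1* (0.04), *Kdr* (-0.04) and *Esam* (-0.0004) were small against the spread between tumors, and were 0.03, -0.12 and -0.15 without NTC replicate 1. *Pecam1* counts were 1.47 to 2.92 times those of *Cdh5* in KO and 1.78 to 2.23 times in NTC, and *Esam* counts 0.215 to 0.315 times and 0.177 to 0.359 times.

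*Angpt2* counts were 2.00, 2.45, 2.36, 2.68 and 1.96 times those of *Cdh5* in KO tumors and 1.33, 6.53, 3.17, 5.02 and 3.58 times in NTC tumors. Apart from NTC replicate 1, the lowest of all, every NTC tumor lay above every KO tumor. The difference was -0.61 on the log2 scale (exact permutation p = 0.183) over 10 tumors. It was -0.95 without NTC replicate 1 (exact permutation p = 0.0159, which is the smallest that 5 against 4 allows), so 1 library decides this result. Without that library the fitted log2 fold change was 0.64 for *Cdh5* and -0.25 for *Angpt2*, so *Cdh5* held the larger part of the ratio difference. Against the summed other pan-endothelial genes in place of *Cdh5*, the difference over 10 tumors was -0.12 (exact permutation p = 0.262). The most abundant genes of that sum, *Eng* and *Apold1*, did not follow *Cdh5* (r = -0.38 and -0.74). *Vwf* counts were 1.05 to 3.71 times those of *Cdh5* in KO and 0.777 to 9.65 times in NTC, with differences of -0.75 (exact permutation p = 0.325) and -1.28 (exact permutation p = 0.0794) with and without that library. It was -0.37 (exact permutation p = 0.635) without NTC replicate 4 and -0.48 without NTC replicate 2, and -0.27 against the summed other pan-endothelial genes.

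The other endothelial genes gave the same picture by count. Of 25 further pan-endothelial genes, 24 were tested, none was called, and 16 had a positive log2 fold change, with a median of 0.19 against 0.0076 over all genes. Without NTC replicate 1, 21 of 25 were positive and the median was 0.40. Of the 24, 19 had an r above 0.7 with *Cdh5*, which at least 15.9% of all ranked genes had. Another 2 had a negative r, *Apold1* (-0.74), an early response gene of endothelium, and *Eng* (-0.38), the TGF-β co-receptor endoglin. Their means in KO tumors were 104 and 115 CPM. *Icam2*, an adhesion molecule of resting endothelium, was the only one at an unadjusted p under 0.05 over 10 tumors (-0.59, SE 0.24, unadjusted p = 0.0304, adjusted p = 0.505 in edgeR), with -0.59 also without NTC replicate 1. *Sox18*, a transcription factor of vessel development, had 0.77 (SE 0.54).

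Of the 12 VEGF and angiopoietin ligands, co-receptors and regulators, none was called, and 4 passed an unadjusted p under 0.05, of which 3 were lower in KO, where 8.85% of all genes passed in either direction. Their median was -0.31. It was -0.15 without NTC replicate 1, with 6 of 12 positive, and 3 passed as higher and 4 as lower, where 20.1% of all genes passed. *Vegfa*, the chief growth factor of vessels, stood between 78.7 and 155 CPM in KO and between 157 and 310 CPM in NTC. These ranges did not overlap but nearly met, and 2.32% of all genes had ranges that did not overlap. It was named for its low unadjusted p, which favors ranges that lie apart. *Vegfa* had -0.91 (SE 0.23, adjusted p = 0.235 in edgeR). Placental growth factor, *Pgf*, which binds FLT1, stood at 11.5 ± 4.40 CPM in KO and 24.1 ± 6.30 CPM in NTC (SD, n = 5 each), with -1.07 (SE 0.27, adjusted p = 0.238 in edgeR). *Angpt1*, the main activating ligand of TIE2, had -0.92 (SE 0.38, adjusted p = 0.509 in edgeR), and *Angpt4*, another ligand of it, had 1.61 (SE 0.55, adjusted p = 0.401 in edgeR) at under 2 CPM in every tumor. Without NTC replicate 1, *Vegfa* was at -0.95 and *Pgf* at -1.21 (adjusted p = 0.145 and 0.117 in edgeR), *Angpt1* at -0.77 and *Angpt4* at 1.92 (adjusted p = 0.265 and 0.143 in edgeR).

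Among 9 tip cell and sprouting genes none was called and 1 passed an unadjusted p under 0.05, where 8.85% of all genes passed. *Mcam*, an adhesion molecule that melanoma cells also carry, stood between 48.0 and 63.5 CPM in KO and between 67.2 and 89.9 CPM in NTC. These ranges did not overlap, as for 2.32% of all genes, and *Mcam* was also named for its low unadjusted p. *Mcam* had -0.57 (SE 0.11, adjusted p = 0.137 in edgeR). It had -0.66 (adjusted p = 0.0547 in edgeR) without NTC replicate 1. *Unc5b*, a netrin receptor of tip cells, had -0.45 (SE 0.23), and *Pdgfb*, the factor by which tip cells draw in pericytes, had 0.63 (SE 0.41).

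Among 8 arterial genes 7 were tested, 6 were positive and none was called, with a median of 0.84. *Sema3g*, a semaphorin of arterial endothelium, stood between 4.87 and 7.77 CPM in KO and between 1.83 and 3.74 CPM in NTC. These ranges did not overlap, as for 2.32% of all genes, and *Sema3g* too was named for its low unadjusted p. It had 1.17 (SE 0.26, adjusted p = 0.180 in edgeR), and 1.24 without NTC replicate 1. The gap-junction gene *Gja5* had 1.44 (SE 0.95) and the Notch target *Hey1* 1.16 (SE 0.70). Without NTC replicate 1, which had the highest NTC value of both, they had 2.83 and 2.18 (adjusted p = 0.136 and 0.0751 in edgeR), and 5 of the 7 arterial genes passed an unadjusted p under 0.05, all higher in KO, where 20.1% of all genes passed in either direction. *Gja5* averaged 2.77 CPM in KO and 0.372 CPM in NTC without replicate 1. The means of *Hey1* were 1.19 and 0.251 CPM, so both fold changes rest on few NTC reads.

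Among 8 venous and activated endothelial genes 6 were tested, and *Vcam1*, the leukocyte adhesion molecule of inflamed vessels, was the only one at an unadjusted p under 0.05. It stood at 97.5 ± 68.0 CPM in KO and at 35.7 ± 21.3 CPM in NTC (SD, n = 5 each), and had 1.46 (SE 0.59, adjusted p = 0.505 in edgeR), and 1.76 without NTC replicate 1. *Icam1* had 0.74 (SE 0.49) and the venous regulator *Nr2f2* -0.17 (SE 0.14). Of 7 lymphatic genes 4 were tested, all 4 with negative values and none at an unadjusted p under 0.05. *Lyve1*, a hyaluronan receptor of lymphatic vessels and some macrophages, had -2.0 (SE 0.94), set by 46.6 CPM in NTC replicate 1, and -0.83 without that library. *Flt4* had -0.40, *Pdpn* -0.53 (0.27 without NTC replicate 1) and *Prox1*, the lymphatic master regulator, -0.06.

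Of 10 pericyte and mural genes 9 were tested, and 7 were positive with a median of 0.57. *Cspg4*, the pericyte proteoglycan NG2, had 0.64 (SE 0.23, unadjusted p = 0.0171, adjusted p = 0.423 in edgeR). *Notch3*, the receptor that maintains mural cells, had 1.24 (SE 0.53, unadjusted p = 0.0414, adjusted p = 0.531 in edgeR), and *Des*, the filament protein desmin, had 0.94 (SE 0.43). With NTC replicate 1 left out these became 0.67, 1.54 and 1.25. In that fit 10 of 10 were positive with a median of 0.72, and 4 passed an unadjusted p under 0.05, where 20.1% of all genes passed. Of 6 smooth muscle genes 5 were tested and 2 were positive, with a median of -0.38, and without NTC replicate 1 the median was 0.53. *Acta2*, smooth muscle actin, had -0.38 (SE 0.79) and reached 93.7 CPM in NTC replicate 1, and without that library it had 1.10. *Myh11*, *Tagln* and *Lmod1* had 0.54, -0.74 and -0.69, and without that library 1.01, 0.53 and -0.36.

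**Figure D5:**
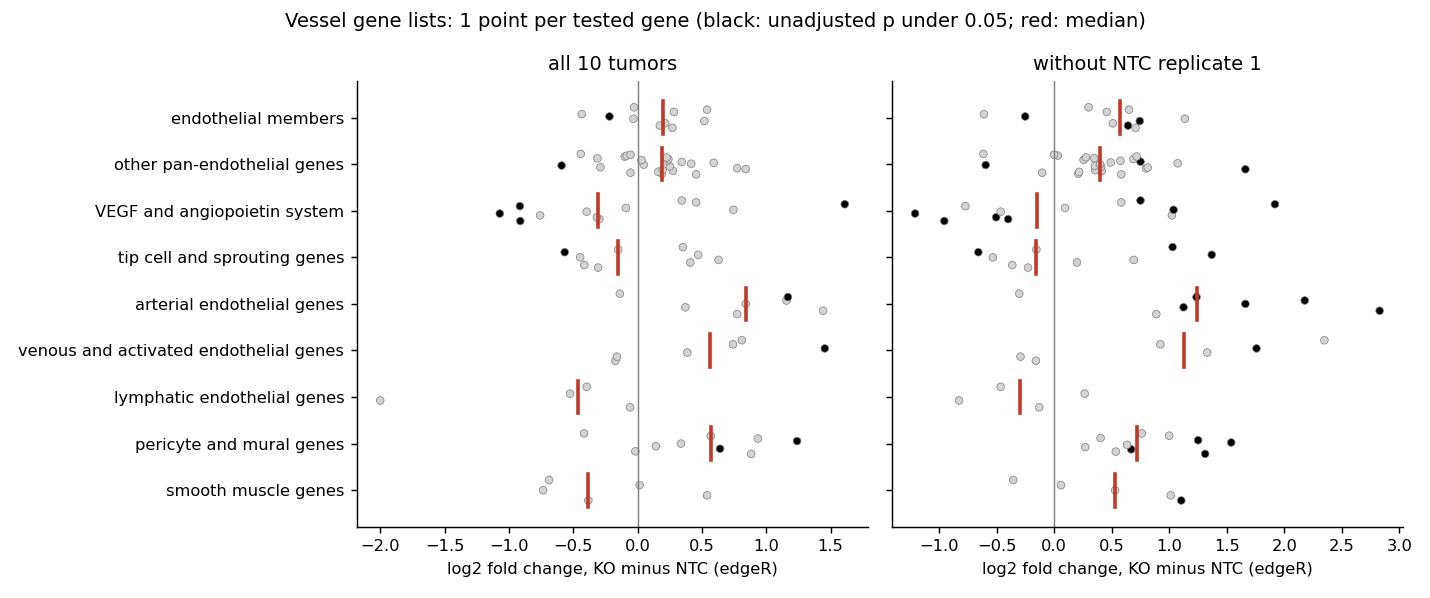
Log2 fold change (KO minus NTC, edgeR) of every tested gene of the 10 genes and of 8 other vessel gene lists, 1 point per gene, over all 10 tumors and without NTC replicate 1. Black points have an unadjusted p under 0.05 and the red bar is the list median, which for the smooth muscle genes goes from -0.38 to 0.53 when NTC replicate 1 is left out.

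Among the markers of other cells, the erythrocyte markers summed to between 250.2 and 1605 CPM in KO and between 74.9 and 425 CPM in NTC, and the groups overlapped only through NTC replicate 1. The 1605 CPM was KO replicate 2, and the other KO tumors lay between 250.2 and 511 CPM. Of the 6, 5 passed an unadjusted p under 0.05, where 8.85% of all genes passed, and none was called. Skeletal muscle markers reached 208 CPM in KO replicate 4 and 39.0 CPM in KO replicate 3, against at most 4.82 CPM in NTC tumors, and keratinocyte markers reached 19.9 CPM in KO against at most 1.87 CPM in NTC. Adipocyte markers ran from 5.02 to 70.6 CPM in KO and from 0.325 to 73.0 CPM in NTC. The melanoma cell markers summed to between 11759 and 19313 CPM in KO and between 11213 and 21312 CPM in NTC, the lowest being NTC replicate 1. The part of these other cells in the vessel gene levels was not tested.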

How the data were processed

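RNA-seq libraries of 5 *Mir25* KO and 5 NTC tumors were used. The authors deposited raw counts of reads per gene, without normalization. Their notes name FastQC, Trimmomatic, HISAT2 and HTSeq with mm10. The annotation and the strand setting were not given in the sources used here. Summary rows that name no gene were left out of library sizes (reads on no gene were 17.5% to 42.9%). Intervals from counts would cover counting error only, so errors come from the spread between tumors.

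KO and NTC were compared by the quasi-likelihood test of edgeR 4.0.16 (R 4.3.3), with TMM factors, filterByExpr and Benjamini-Hochberg adjustment over all tested genes. It was checked on simulated data. Each SE was derived from this test, as the absolute log2 fold change over the square root of its F statistic. Log2 CPM used a prior count of 2, and ratios added 0.5 to each count. The alternatives were DESeq2 1.42.0, RLE factors, library totals, other filters, no fold threshold, robust dispersion, a leukocyte covariate, a replicate block and each tumor left out. Permutation tests used scipy 1.17.1.

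The genes and the lists were chosen with earlier results of these data known. Named from each vessel list were called genes and up to 3 with the lowest unadjusted p over 10 tumors, plus the first gene listed where none was under 0.05. *Apold1*, *Eng*, *Angpt1*, *Pf4*, *Gp9* and the other platelet markers were named after their values were seen.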

Additional observations from a re-analysis of the deposited data

Results flagged for a closer look

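In groups of 5 tumors, 42 sets of values were screened for a tumor lying far from its group, and 3 were found, all in NTC replicate 1. Chance gives about 1 in 20. *Tek* stood at 13.9 CPM there against 0.0656 to 3.36 CPM in the other NTC tumors. The reads on genes numbered 11896643 against 24145795 to 28682130, and the TMM factor was 0.628 against 1.02 to 1.11. The part of the small library in its *Tek* level was not tested.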

How the results depend on the processing

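None of the 10 genes was called under any alternative. Over all genes, the main test called 1 higher and 2 lower. DESeq2 called 24 and 72, and without NTC replicate 1 it called 526 and 110. Requiring 10 counts in every tumor gave 0 and 6 (8 of the 10 genes tested), no fold threshold 1 and 4, robust dispersion 1 and 4, the leukocyte covariate 5 and 8, and library totals only 1 and 0. With the replicate number as a block the calls were 1 and 0, and *Tek* had 0.89 and *Emcn* 0.072. Same-numbered tumors correlated from -0.287 to 0.633, over 0.1 in 3 of 5 pairs, and 2 KO tumors correlated best with their own number. Tumors of different numbers also reached 0.62 (KO replicate 5 with NTC replicate 1). These values cannot decide whether the numbers pair the tumors, and the labels do not say. Leaving out 1 tumor gave 1 to 2 genes higher and 0 to 15 lower, where 15 came without NTC replicate 1.

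The direction turned for 5 genes whose values were small against their errors. The leukocyte covariate gave -0.26 for *Pecam1*, -0.075 for *Cdh5* and -0.038 for *Kdr*. With 1 tumor left out, *Vwf* ran from -0.61 to -0.13, *Cdh5* ran from -0.014 (without NTC replicate 2) to 0.64, *Tek* from -0.36 to 1.14 (0.12 and 0.20 without KO replicates 3 and 4) and *Emcn* from -0.23 to 0.30 (0.06, 0.01, 0.12 and 0.05 without KO replicates 1, 3 and 4 and NTC replicate 3). Without a filter *Tek* had 0.11 and *Emcn* 0.041, on library totals only 0.31 and 0.14, and in DESeq2 without NTC replicate 1 1.18 and 0.33. Ratios to *Cdh5* with 1 tumor left out ran from -0.095 to 0.15 for *Pecam1*, from -0.14 to 0.085 for *Kdr*, from -0.15 to 0.11 for *Esam*, from -0.95 to -0.38 for *Angpt2*, from -1.28 to -0.37 for *Vwf*, from 0.14 to 1.42 for *Tek*, from 0.01 to 0.81 for *Cldn5* and from -0.45 (without KO replicate 2, exact permutation p = 0.0476) to -0.20 for *Emcn*. Against the summed other pan-endothelial genes, of which *Eng* and *Apold1* are the most abundant and do not follow *Cdh5*, the ratios of *Kdr*, *Esam* and *Emcn* were 0.44, 0.48 and 0.18, those of *Pecam1*, *Flt1*, *Tek* and *Cldn5* were 0.52, 0.62, 1.40 and 0.93, and those of *Angpt2* and *Vwf* were -0.12 and -0.27. The cause of these turns was not tested. With 5 tumors a group and a spread of 35.2% to 101% for 9 of the 10 genes, small differences in vessel genes were not detectable.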
